A study of Mus musculus with 6 samples.

Results

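Livers of newborn C57Bl6/J mice were compared between mothers fed flaxseed oil and mothers fed coconut oil during the study. The comparison took the 2 arrays titled ALA and the 2 titled SFA, which are 4 of the 6 arrays in the series. The 2 control arrays served as a reference level. ALA stands for alpha-linolenic acid and SFA for saturated fatty acids, and the groups were taken from the array titles. All mothers were of the same strain and were 4 to 5 weeks old when they were put on isocaloric diets with 6 g% of oil. Flaxseed oil gave the ALA diet, in which alpha-linolenic acid was 31.6% of the fatty acids. Coconut oil gave the SFA diet, in which saturated fatty acids were 48.51%. Soybean oil gave the control diet, in which the labels name oleic acid, at 42%, as the main fatty acid. Fathers ate chow and shared the mothers' diet only for mating, and all animals were kept in 12 h of light and 12 h of dark. The offspring livers were taken within 1 day of birth.

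RNA from 3 whole livers was pooled for each array, with a pair of pools per diet. The labels do not give the sex of the pups, their litters or the time of day of collection, nor whether the pools of a diet share animals. The spread behind every p-value is thus that of these samples alone and may be technical. In whole liver, fewer cells of a type and less RNA per cell cannot be told apart.

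Alpha-linolenic acid is an essential omega-3 fatty acid. The liver desaturates and elongates it with FADS2, ELOVL5 and FADS1 on the way to eicosapentaenoic and docosahexaenoic acid, and long omega-3 fatty acids are known to restrain the transcription of lipid synthesis genes through SREBP-1. Coconut oil is rich in lauric and myristic acid, which are saturated. At birth the liver passes from a supply of glucose across the placenta to the fat of milk, still holds blood-forming cells, and is a main source of plasma proteins that rise in inflammation.

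The deposited values are RMA signals on the log2 scale, where a difference of 1 is a doubling. A gene was represented by its brightest probe among those annotated to 1 gene, which gave 19938 genes, of which 19103 are autosomal. The 10977 genes with a mean of at least 5 over the 6 arrays were tested, and 10666 of these are autosomal. The median over all probes was 4.76 and 4.82 for SFA and 4.90 to 4.96 for the other arrays. Duplicates correlated across tested genes at r = 0.978 for ALA and 0.986 for SFA, and pairs of an ALA and an SFA array at 0.961 to 0.964. Hepatocyte markers were present on all arrays: Alb, which encodes albumin, lay between 12.58 and 12.75. Afp, which encodes alpha-fetoprotein and is known to be abundant in fetal and newborn liver, read only 4.52 to 6.44 on the 6 arrays.

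Sex-linked genes separated the diets. Xist, the RNA that silences an X chromosome in females, read 3.76 and 4.24 in the ALA pools, 9.46 and 9.51 in the SFA pools and 10.67 and 8.34 in the control pools. Eif2s3y, a translation factor gene of the Y chromosome, had 7.74 and 7.8 on ALA, 4.11 and 3.79 on SFA and 3.63 and 7.95 on control. Both ALA pools thus had Y-linked and hardly any Xist signal, both SFA pools had the reverse, and the control pools differed from each other. Sex and oil cannot be told apart between the ALA and SFA arrays. The results below are on autosomal genes only.

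The control pools stood far from both oils in some genes. Hamp, which encodes the iron hormone hepcidin, read 11.78 and 11.61 on control against 3.83 to 5.73 on the other 4 arrays, and 44 cell cycle genes averaged 5.21 and 5.13 on control against 5.76 to 6.81. Whether the control livers match the others in age or condition was not tested, so a place above or below control in the text is a position on these arrays and not a direction of change from a matched baseline.

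On ALA against SFA, 161 of 10666 autosomal genes passed the test (1.51%): 115 were higher on ALA (1.08%) and 46 lower (0.431%). A gene passed, or was called, when limma's p-value was below 0.05 after Benjamini-Hochberg adjustment across the 10977 tested genes. The named genes with the largest called differences were the acute-phase gene Orm3, the clock gene Per3, Dmbt1, a gene of mucosal defence, and the clock genes Ciart and Per2 on the ALA side, and the steroid reductase gene Akr1c18, the water channel gene Aqp8 and the glutathione transferase gene Gstm4 on the SFA side. The called differences were at least 0.68 on the log2 scale with a median of 0.95, and 69 were 1 or more. By comparison the median autosomal difference was 0.04 (range between quartiles -0.16 to 0.24), and the median standard error (SE) of a difference was 0.15. In the same fit 871 genes were called for ALA against control (7.93%) and 1512 for SFA against control (13.8%). Errors below are SE of this fit, with n = 2 arrays per diet.

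The number of calls depended on each array and on the spread that the fit assumed. It was 0 without ALA replicate 1, without SFA replicate 1 or without SFA replicate 2, 35 without ALA replicate 2, and 7 without either control array. Genes at an unadjusted p below 0.05 numbered 2372 (22.2%) with all arrays and 1577 to 2295 when an array was left out. The share of calls that were higher on ALA was 71.4%, but 58.7% when each array was centred on its median and 61.4% after quantile normalization, which removed the median difference of 0.04. All 161 kept their direction in every setting in which they were fitted. Leaving out an array could not turn it, since the ALA and SFA arrays overlapped in none of the 161. The kept direction is thus no measure of how stable the calls are. The smallest adjusted p was 0.0294, so every call lay close to the threshold. Lack of overlap alone is common with 2 arrays a diet: both arrays of one diet lay above both of the other in 5932 autosomal genes (55.6%). At an unadjusted p below 0.05, 1436 genes were higher (13.5%) and 936 lower (8.78%). The list counts below at this level stand against that share of 22.2% in all. Under trend and robust, another variance setting of limma, 406 of 10666 autosomal genes were called. Over all autosomal genes 5853 differences were above 0 and 4796 below.

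**Figure D1:**
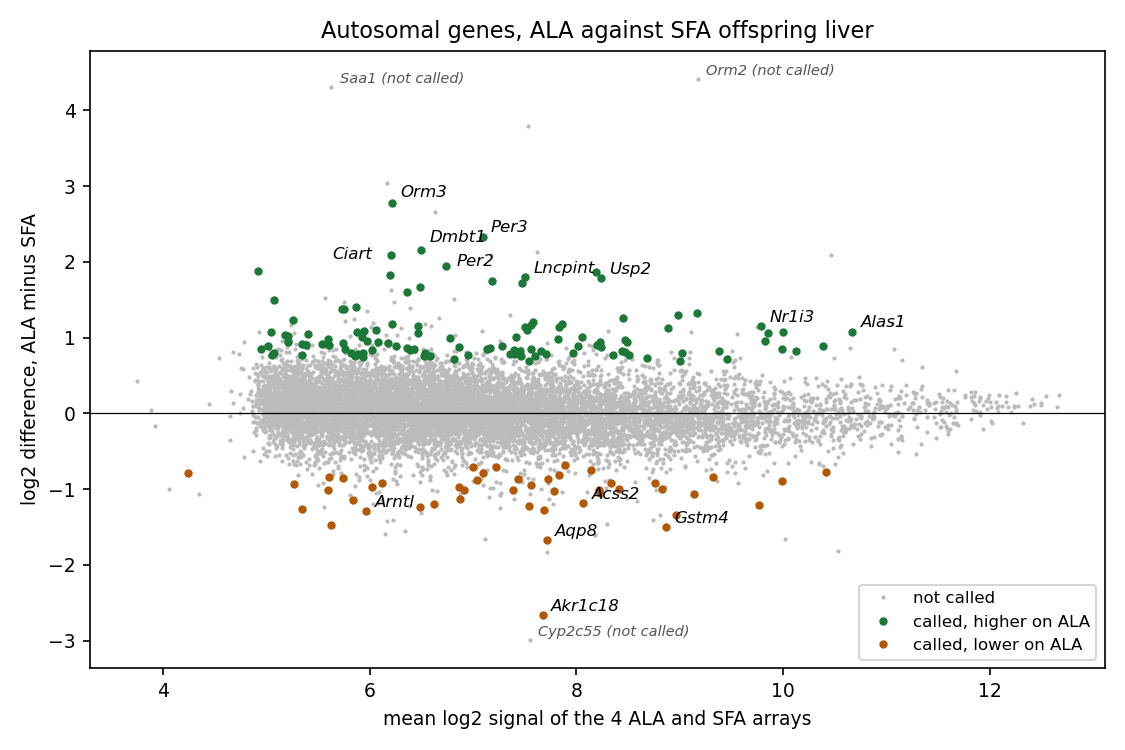
Each point is 1 of the 10666 tested autosomal genes, with the mean log2 signal of the 4 ALA and SFA arrays on the horizontal axis and the log2 difference (ALA minus SFA) on the vertical axis. Green points are the 115 genes called higher on ALA, orange points the 46 called lower, and Orm2, Saa1 and Cyp2c55 show that some of the widest differences were not called.

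Genes of the circadian clock had the highest share of calls among the lists of processes. Of 17 tested members, 6 were called higher on ALA and 1 lower (41.2%, against 1.51% of all autosomal genes), and the median difference was 0.50. The clock is a feedback loop in which ARNTL (BMAL1) and CLOCK bind E-boxes and activate the genes of their own repressors, the PER and CRY proteins, together with output genes such as Dbp. In adult mouse liver Arntl is known to peak at the opposite time of day to Per2 and Dbp.

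Among the repressors, Per2 read 7.79 and 7.63 on ALA, 5.96 and 5.58 on SFA and 6.96 and 6.92 on control (log2 signal of replicates 1 and 2). The 3 diets did not overlap, with control in between. Per2 was 3.84-fold higher on ALA than on SFA (log2 difference 1.94, SE 0.159, adjusted p = 0.0294) and was called in 13 of 17 alternative settings. Leaving out either control array gives the same test as the 4 ALA and SFA arrays alone. Counts of settings, here and below, are thus not counts of independent checks. Per3 had 7.88 and 8.64 on ALA, 6.13 and 5.72 on SFA and 7.21 and 7.03 on control, again with control between the oils. Its difference was 2.33 (SE 0.259, adjusted p = 0.0348). Ciart encodes a repressor of the ARNTL-CLOCK pair. It had 7.01 and 7.50 on ALA, 5.49 and 4.83 on SFA and 5.40 and 6.20 on control, with a difference of 2.09 (SE 0.326, adjusted p = 0.0409) and of 3.11 by its other probe. Per1 missed the threshold at a difference of 0.87 (adjusted p = 0.0536), although its ALA arrays (8.20 and 8.46) lay above the SFA (7.52 and 7.41) and control (7.42 and 7.12) arrays.

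Output genes were called in the same direction. Dbp, a transcription factor that passes the rhythm on to metabolic genes, had 8.21 and 8.46 on ALA, 6.78 and 6.44 on SFA and 8.57 and 9.01 on control. Here the SFA arrays were the low ones, and ALA lay just below control. Its difference was 1.72 (SE 0.198, adjusted p = 0.0348). Tef, a close relative of Dbp, had 8.12 and 8.25 on ALA, 7.07 and 6.88 on SFA and 8.0 and 7.97 on control, a difference of 1.21 (SE 0.130, adjusted p = 0.0348). Usp2, a rhythmic deubiquitinase gene, had 9.35 and 8.92 on ALA, 7.32 and 7.36 on SFA and 7.06 and 7.71 on control. In this gene ALA was the high group and SFA did not separate from control, and the difference was 1.79 (SE 0.237, adjusted p = 0.0383). Noct, which encodes the rhythmic protein nocturnin and was not in the list, was 1.16 higher on ALA (SE 0.194, adjusted p = 0.0431).

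The activator gene Arntl was the 1 clock gene called lower on ALA. It had 5.48 and 5.16 on ALA, 6.64 and 6.59 on SFA and 4.53 and 4.72 on control. SFA was highest, ALA intermediate and control lowest, without overlap, and the difference was -1.29 (SE 0.151, adjusted p = 0.0348). The mean of Arntl over the ALA and control arrays was below the minimum signal of 5. This call thus entered the list's share only through SFA. Clock, its partner, differed by -0.29 (95% interval -0.60 to 0.03, adjusted p = 0.252). Nr1d1, the REV-ERB alpha repressor of Arntl, had 9.19 and 9.48 on ALA and 9.55 and 9.43 on SFA, which overlapped, and 10.51 and 10.78 on control. Nr1d2 differed by 0.46, Cry2 by 0.58 and Hlf by 0.50, and these 3 passed only without adjustment. Leaving out ALA replicate 1 or 2 gave a list median of 0.54 or 0.41.

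**Figure D2:**
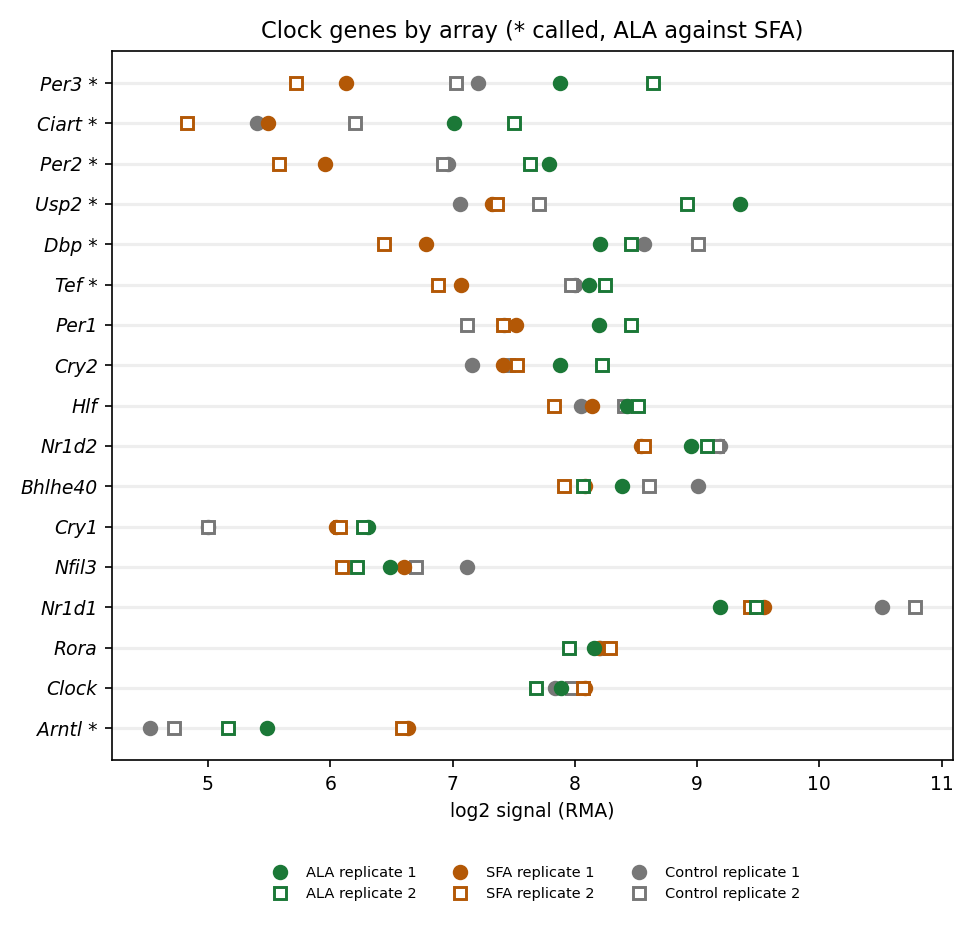
The log2 signal of the 17 tested clock genes is shown on each array, ordered by the difference between ALA (green) and SFA (orange), with control in grey, filled circles for replicate 1, open squares for replicate 2 and an asterisk at the 7 called genes. The ALA arrays lie to the right of the SFA arrays from Per3 down to Cry1 except for the overlap in Bhlhe40, and to the left in Arntl.

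The promoters of the called clock genes that held an E-box are printed here because the E-box is the site that ARNTL and CLOCK bind. The E-box was searched as CACGTG, which reads the same on both strands, from 250 bases before to 50 bases after each start site. It was in the promoters of 4 of the 15 clock genes with an entry (26.7%: Per1, Cry1, Tef and Ciart) and in 2187 of 27025 genes of the whole table (8.09%). A match is no proof of binding. The sequences are the 250 bases before the start site from RefSeq on GRCm38.p6, 5′ to 3′ on the gene's strand, with each E-box in capitals. That of Ciart, at chr3:95882229-95882478 on the minus strand, holds 3 E-boxes, whose first bases lie at -116, -58 and -44 from the start. The 2 start sites of Tef, at chr15:81802423-81802672 and chr15:81811164-81811413 on the plus strand, hold 1 E-box each, at -127 and -138.
Ciart: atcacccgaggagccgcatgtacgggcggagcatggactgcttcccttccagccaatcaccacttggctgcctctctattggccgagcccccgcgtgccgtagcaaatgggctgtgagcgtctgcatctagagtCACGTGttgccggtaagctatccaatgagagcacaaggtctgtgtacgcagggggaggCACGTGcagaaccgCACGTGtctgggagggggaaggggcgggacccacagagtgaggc
Tef, start site 1: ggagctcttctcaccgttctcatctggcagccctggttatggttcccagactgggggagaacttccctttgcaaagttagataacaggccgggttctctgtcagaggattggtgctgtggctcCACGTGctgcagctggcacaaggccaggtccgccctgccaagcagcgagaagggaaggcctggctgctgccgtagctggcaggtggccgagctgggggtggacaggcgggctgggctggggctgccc
Tef, start site 2: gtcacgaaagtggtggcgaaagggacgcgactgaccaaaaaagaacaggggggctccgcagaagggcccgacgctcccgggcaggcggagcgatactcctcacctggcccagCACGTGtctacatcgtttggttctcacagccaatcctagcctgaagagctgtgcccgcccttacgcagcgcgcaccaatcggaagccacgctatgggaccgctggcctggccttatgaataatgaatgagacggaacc

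Acute-phase genes, whose proteins the liver secretes in inflammation, held the widest differences of all autosomal genes. Of 27 tested members, 1 was called, higher on ALA (3.70%, against 1.51% of all autosomal genes). At an unadjusted p below 0.05 there were 11, each higher on ALA, and 25 of 27 differences were above 0 with a median of 0.28. The called gene was Orm3, which encodes an orosomucoid, an acidic plasma glycoprotein. It had a log2 signal of 8.34 and 6.86 on ALA, 5.00 and 4.66 on SFA and 6.00 and 6.16 on control. Its 3 diets did not overlap, ALA was 6.83-fold above SFA (log2 difference 2.77, SE 0.422, adjusted p = 0.0393), and the ALA pools differed from each other more than the other duplicates did.

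Related genes had wide differences that were not called. Orm2 had 11.79 and 10.97 on ALA, 7.24 and 6.69 on SFA and 7.98 and 10.77 on control, a difference of 4.42 (SE 0.795, adjusted p = 0.0510). It was called when only the 4 ALA and SFA arrays were fitted (adjusted p = 0.0212), since the control pools lay far apart. Saa1, a serum amyloid A gene, had 8.95 and 6.63 on ALA, 2.94 and 4.00 on SFA and 3.43 and 5.61 on control (difference 4.31, adjusted p = 0.0657). Saa2 differed by 3.79 (adjusted p = 0.100), Saa3 by 2.66 (adjusted p = 0.0568) and Lcn2, the iron-scavenging lipocalin, by 2.09 (adjusted p = 0.129). In each of these genes both ALA arrays lay above both SFA arrays, and ALA replicate 1 was the highest of all 6 arrays. Some of the Orm and Saa genes are close copies whose probes may share signal, so the split among those is uncertain.

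The acute-phase difference was uneven between pools. The mean signal of the 27 members was 10.12 and 9.53 on ALA, 8.83 and 8.83 on SFA and 9.30 and 9.90 on control. The SFA pools were alike and lowest, and control replicate 2 lay between the ALA pools. Without ALA replicate 1 the median difference of the list was 0.18, and without ALA replicate 2 it was 0.40. Hamp, also in this list, had 5.73 and 4.52 on ALA and 3.83 and 4.85 on SFA, which overlapped. Dmbt1, which was not in the list, was called higher on ALA at 8.15 and 7.0 against 5.72 and 5.13 on SFA and 3.98 and 3.68 on control (difference 2.15, SE 0.372, adjusted p = 0.0457).

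Cholesterol synthesis genes differed widely between the ALA pools. All 18 tested members had a lower mean on ALA than on SFA, with a median difference of -0.91, yet 0 were called (limma), with 12 at an unadjusted p below 0.05 and 0 under another variance setting of limma, trend and robust. Cyp51, which encodes lanosterol demethylase, had 5.60 and 7.99 on ALA, 8.64 and 8.62 on SFA and 8.42 and 8.96 on control (difference -1.84, SE 0.664, adjusted p = 0.170). ALA replicate 1 was far below the other 5 arrays, and ALA replicate 2 was below them by less. Sqle, squalene epoxidase, repeated this with 4.99 and 7.59 on ALA, 7.80 and 8.09 on SFA and 7.60 and 8.51 on control (difference -1.66, adjusted p = 0.242). Idi1, which makes the isoprenoid precursor of sterols, differed by -1.60 (adjusted p = 0.131) and Hmgcs1, which commits acetyl groups to the pathway, by -1.05 (adjusted p = 0.161).

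The list's mean signal was 7.15 on ALA replicate 1 and 8.36 on replicate 2, against 8.67 and 8.64 on SFA and 8.54 and 8.84 on control. Without ALA replicate 1 the median difference was -0.29, and without ALA replicate 2 it was -1.33. In that second fit Cyp51, Fdps, Hmgcs1 and Idi1 passed the threshold (adjusted p = 0.0351, 0.0429, 0.0353 and 0.0499). The sign of the median was thus the same with either pool, and its size was set by 1 pool.

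**Figure D3:**
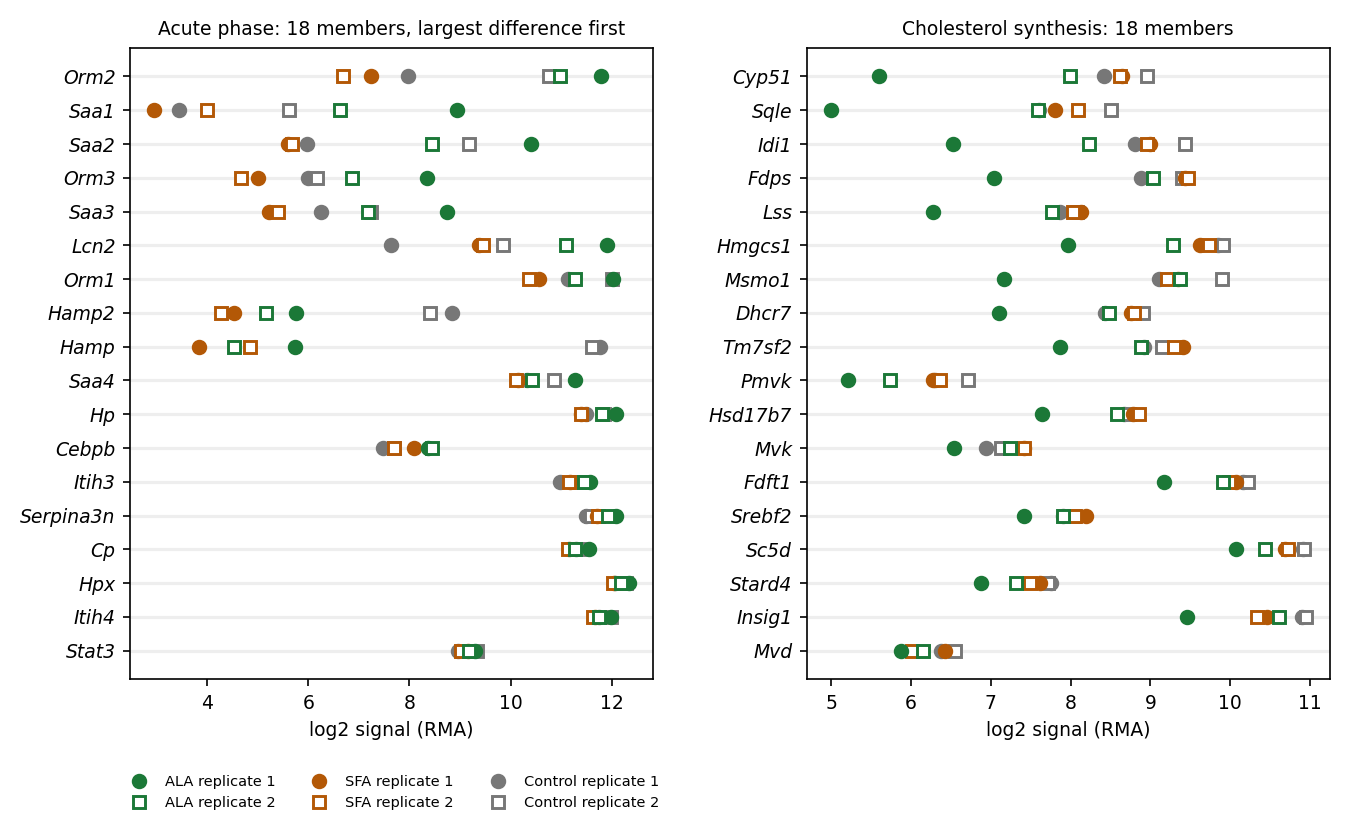
The log2 signal on each array is shown for the 18 acute-phase genes with the largest differences (left) and for the 18 cholesterol synthesis genes (right), with ALA in green, SFA in orange and control in grey, filled circles for replicate 1 and open squares for replicate 2. ALA replicate 1 is the highest array in the acute-phase genes from Orm2 to Lcn2 and the lowest in each cholesterol gene, while ALA replicate 2 lies nearer to SFA and control in the cholesterol genes.

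Fatty acid synthesis genes were called in both directions: 3 of 23 tested members were higher on ALA and 1 was lower (17.4%, against 1.51%), with a median difference of -0.17. Thrsp, a lipogenic protein gene that responds to thyroid hormone and carbohydrate, had 9.63 and 10.02 on ALA, 8.48 and 8.53 on SFA and 8.32 and 7.77 on control. ALA was above both other diets (difference 1.32, SE 0.214, adjusted p = 0.0431). Lpin1, whose protein makes diacylglycerol and acts on fat oxidation genes, had 10.90 and 10.76 on ALA, 9.96 and 9.92 on SFA and 9.22 and 9.10 on control (difference 0.89, SE 0.125, adjusted p = 0.0392). Mlxipl, which encodes the carbohydrate sensor ChREBP, had 9.82 on both ALA arrays, 9.15 and 9.05 on SFA and 10.25 and 10.42 on control (difference 0.72, SE 0.126, adjusted p = 0.0470). In this gene SFA was lowest and control highest.

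The called member on the SFA side was Acss2, which turns acetate into acetyl-CoA for lipid synthesis. It had 7.36 and 7.59 on ALA, 8.60 and 8.72 on SFA and 8.26 and 8.44 on control, so that ALA was the low group (difference -1.18, SE 0.141, adjusted p = 0.0348). Scd1, the desaturase that makes oleic acid, had 8.77 and 10.47 on ALA, 11.47 and 11.43 on SFA and 11.58 and 11.74 on control. Its difference of -1.82 was not called (SE 0.470, adjusted p = 0.0957) and again rested mostly on ALA replicate 1. The pathway's central genes did not pass: Fasn, fatty acid synthase, differed by -0.41 (95% interval -1.21 to 0.39), Acaca, acetyl-CoA carboxylase, by 0.43 (0.04 to 0.82), Srebf1, which encodes SREBP-1, by 0.26 (-0.14 to 0.67) and Elovl6 by -0.40 (-1.0 to 0.21). The Fasn difference changed sign without ALA replicate 1.

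The enzymes that convert alpha-linolenic acid gave 0 calls among 11 tested members (limma), with 4 at an unadjusted p below 0.05 and 0 under trend and robust, and a median difference of -0.13. Fads2, the desaturase of the first step, had 11.17 and 11.24 on ALA, 11.42 and 11.36 on SFA and 11.44 and 11.38 on control. The ALA arrays were the 2 lowest, and the difference was -0.18 (95% interval -0.46 to 0.09, adjusted p = 0.388). Fads1 differed by -0.53 (-0.96 to -0.10, adjusted p = 0.154), Elovl5 by -0.52 (-0.90 to -0.13, adjusted p = 0.135) and Elovl2 by -0.24 (-0.52 to 0.05, adjusted p = 0.290). Acaa1a, a peroxisomal thiolase gene, differed by 0.60 (adjusted p = 0.108).

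Fat oxidation and ketogenesis gave 0 calls among 31 tested members (limma), with 1 at an unadjusted p below 0.05 and 0 under trend and robust, and a median difference of 0.01. Ppara, the nuclear receptor that senses fatty acids, differed by 0.28 (95% interval 0.00 to 0.57). Cpt1a, the gate of fat entry into mitochondria, differed by 0.18 (-0.09 to 0.46). The members with the largest differences were Ehhadh at -0.66, Acot2 at -0.65 and Pdk4 at -0.60. None of these had an unadjusted p below 0.05. The 1 member below that level was Ppargc1a, higher on ALA by 0.595 (adjusted p = 0.167). Of the 31 differences 16 were above 0 and 15 below. Apoa5, which promotes the clearance of plasma triglyceride, was the 1 call among 33 genes of lipid uptake, storage and lipoproteins (3.03%). It had 10.46 and 10.38 on ALA, 9.56 and 9.57 on SFA and 10.87 and 10.66 on control, so SFA was the low group (difference 0.85, SE 0.129, adjusted p = 0.0393). Plin4, a lipid droplet coat gene, had 6.39 and 6.59 on ALA, 4.55 and 5.48 on SFA and 5.92 and 5.77 on control, and was not called at 1.48 (adjusted p = 0.0571). Bile acid genes gave 0 calls among 23 (limma), with 5 at an unadjusted p below 0.05 and 2 under trend and robust. The count of 5 is near the share of 22.2% among all autosomal genes. Cyp7a1, the rate-limiting enzyme of bile acid synthesis, differed by 0.87 (adjusted p = 0.0805).

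Akr1c18, a hydroxysteroid dehydrogenase that inactivates progesterone, had the largest called difference on the SFA side. It had a log2 signal of 5.52 and 7.15 on ALA, 9.02 and 9.0 on SFA and 4.22 and 4.29 on control. The 3 diets did not overlap, SFA was 6.36-fold above ALA (log2 difference -2.67, SE 0.450, adjusted p = 0.0431), and the ALA pools differed from each other. It was called in 4 of 17 alternative settings and was the 1 call among 16 tested genes of aldo-keto reductases 1C and steroid enzymes (6.25%). Cyp2c55, a cytochrome P450 gene that xenobiotics induce, had 5.08 and 7.03 on ALA, 9.02 and 9.07 on SFA and 6.28 and 5.31 on control, and was not called at -2.99 (SE 0.592, adjusted p = 0.0602). It was the only gene among 32 tested of the P450 families with a difference beyond 2, and 0 of the 32 were called (limma), with 5 at an unadjusted p below 0.05 and 1 under trend and robust. Cyp3a16, a P450 gene of young mice, differed by -1.34 (adjusted p = 0.126), and Cyp2c38 by 0.73, with ALA and SFA arrays that overlapped at 3.71 to 6.10 against 10.36 and 9.05 on control.

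Gstm4 and Gstm6, of the glutathione transferases that couple toxic compounds to glutathione, were called lower on ALA, and the other tested transferases were not called. Gstm4 had 7.88 and 8.35 on ALA, 9.69 and 9.54 on SFA and 9.93 and 9.36 on control (difference -1.50, SE 0.232, adjusted p = 0.0402). Gstm6 had 7.49 and 7.92 on ALA, 8.78 and 8.74 on SFA and 8.77 and 8.61 on control (difference -1.06, SE 0.166, adjusted p = 0.0411). In both genes ALA was the low group and SFA overlapped control. These were the 2 calls among 32 conjugation enzymes (6.25%), of which 9 were lower and 1 higher at an unadjusted p below 0.05. Gstm3 differed by -1.66 (adjusted p = 0.0916) and Gstm2 by -0.89 (adjusted p = 0.0795). The Gstm genes are close copies in a cluster, so signal may be shared between their probes. Ugdh, which makes the UDP-glucuronic acid used in glucuronidation, was also lower on ALA (difference -0.99, SE 0.142, adjusted p = 0.0393). Of 22 oxidative stress and glutathione genes, 21 had a difference below 0 with a median of -0.21, and 0 were called (limma), with 4 at an unadjusted p below 0.05 and 2 under trend and robust.

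Nr1i3 and Alas1 were called higher on ALA. Nr1i3 encodes CAR, the receptor that turns on drug metabolism genes, and had 10.38 and 10.34 on ALA, 9.20 and 9.22 on SFA and 10.66 and 10.48 on control. SFA was the low group (difference 1.15, SE 0.124, adjusted p = 0.0348), and it was the 1 call among 28 nuclear receptor genes (3.57%). Alas1, the rate-limiting enzyme of haem synthesis in hepatocytes, had 11.25 and 11.17 on ALA, 10.21 and 10.05 on SFA and 10.78 and 10.59 on control (difference 1.08, SE 0.133, adjusted p = 0.0383). Aldh1a7, an aldehyde dehydrogenase gene, went the other way with 7.99 and 8.60 on ALA, 9.78 and 9.49 on SFA and 9.76 on both control arrays (difference -1.34, SE 0.214, adjusted p = 0.0429).

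Cell cycle genes were read lowest in control, higher on ALA and highest on SFA. The mean signal of the 44 tested members was 5.76 and 6.6 on ALA, 6.81 and 6.78 on SFA and 5.21 and 5.13 on control. On ALA against SFA 42 of 44 differences were below 0 with a median of -0.62, and 0 were called (limma), with 21 at an unadjusted p below 0.05 and 1 under trend and robust. Ect2, which drives cytokinesis, had 4.85 and 6.27 on ALA, 7.08 and 7.15 on SFA and 4.58 and 4.26 on control (difference -1.55, adjusted p = 0.0959). Ccna2, cyclin A, had 6.45 and 7.89 on ALA, 8.35 and 8.39 on SFA and 4.41 and 4.48 on control (difference -1.20, adjusted p = 0.146). ALA replicate 1 was lower than replicate 2 in each, and the list median was -0.24 without replicate 1 and -1.08 without replicate 2.

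Hat1, Rfc4, Mzt1 and Mrnip, which are outside that list and are named for their large differences, were called lower on ALA. Hat1, a histone acetyltransferase that acts on new histones, had 7.05 and 7.04 on ALA, 8.47 and 8.17 on SFA and 7.27 and 6.87 on control. Here the ALA pools were alike and lay at the control level (difference -1.28, SE 0.177, adjusted p = 0.0392). Rfc4, a subunit of the clamp loader of DNA replication, had 5.76 and 6.28 on ALA, 7.19 and 7.25 on SFA and 5.50 and 5.59 on control (difference -1.20, SE 0.182, adjusted p = 0.0393). Mzt1, a component of the gamma-tubulin ring that nucleates microtubules, had 6.77 and 7.10 on ALA, 8.13 and 8.18 on SFA and 7.28 and 7.11 on control (difference -1.22, and -0.63 by its other probe). Further called genes, chosen after their values were seen, were the linker histone gene H1f2 (-1.06), Tcf19 (-0.97), the RNase H2 subunit gene Rnaseh2a (-0.95), the DNA damage tolerance gene Rad18 (-0.92) and Cks2 (-0.75). Mrnip, a DNA repair gene, was lower on ALA at 5.71 and 6.04, against 6.98 and 7.23 on SFA and 7.04 and 7.01 on control (difference -1.23, SE 0.160, adjusted p = 0.0383).

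Small nucleolar RNAs were called on the ALA side only. These short RNAs guide the chemical modification of ribosomal RNA and are mostly cut from the introns of host genes. The group was chosen after its values were seen, by RefSeq biotype. Of 31 tested genes, 5 were called higher on ALA and 0 lower (16.1%, against 1.51% of all autosomal genes). Only these 31 of 50 autosomal genes of the group with a probe reached the minimum signal of 5. The called gene Snord47 reached it only through ALA, so the share of 16.1% depends on that minimum. Unadjusted p lay below 0.05 for 15 higher and 1 lower, and 28 differences were above 0 with a median of 0.49 (0.40 after quantile normalization or cyclic loess). Among all autosomal genes 5853 differences were above 0 and 4796 below. The mean signal of the 31 genes was 6.83 and 7.17 on ALA, 6.44 and 6.46 on SFA and 6.93 and 7.10 on control. The SFA pools were thus the low ones. The median difference from control was 0.04 for ALA and -0.48 for SFA.

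Snord82 had 8.78 and 9.45 on ALA, 7.36 and 7.15 on SFA and 8.41 and 8.82 on control (difference 1.86, SE 0.246, adjusted p = 0.0383). Snord35b had 6.93 and 7.29 on ALA, 5.36 and 5.21 on SFA and 6.99 and 7.48 on control (difference 1.82, SE 0.202, adjusted p = 0.0348). In both, ALA overlapped control and SFA stood below. Snord47 had 5.94 and 5.78 on ALA, 4.06 and 3.91 on SFA and 4.97 and 5.73 on control (difference 1.87, SE 0.240, adjusted p = 0.0383), with the SFA signal in the range of genes that those pools hardly express. Snord104 and Snora23 were higher on ALA by 0.95 and 0.76. Arrays of this kind read host transcripts and introns as well as the mature small RNA, so a value may hold either.

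**Figure D4:**
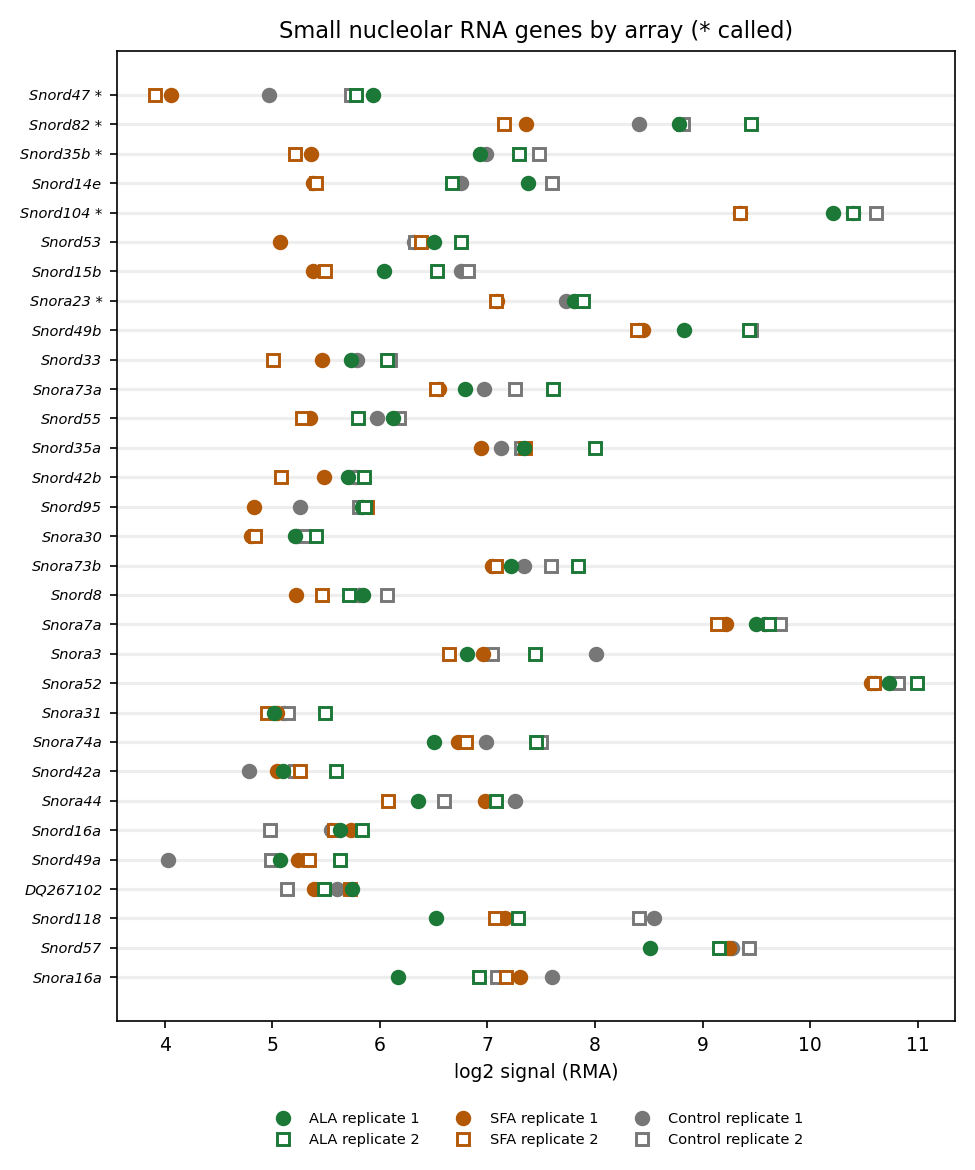
The log2 signal of the 31 tested small nucleolar RNA genes is shown on each array, ordered by the difference between ALA (green) and SFA (orange), with control in grey, filled circles for replicate 1, open squares for replicate 2 and an asterisk at the 5 called genes. The ALA and control arrays lie to the right of the SFA arrays in most genes of the upper part, while the 3 genes at the bottom have a lower mean on ALA.

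Long nuclear RNAs were also among the calls. Lncpint, a long noncoding RNA induced by p53, had 8.42 and 8.38 on ALA, 6.47 and 6.74 on SFA and 8.86 and 8.92 on control. SFA was far below both other diets (difference 1.80, SE 0.137, adjusted p = 0.0294), and the gene was called in 13 of 17 alternative settings. Malat1, an abundant RNA that stays in the nucleus, had 10.31 and 10.76 on ALA, 9.50 and 9.42 on SFA and 10.62 and 10.66 on control (difference 1.07, SE 0.166, adjusted p = 0.0402). Of 152 tested autosomal long noncoding RNAs, 5 were called higher and 1 lower (3.95%), with a median difference of 0.23, against 96 higher and 45 lower of 10351 protein-coding genes (1.36%) and a median of 0.03. The size of the former median depended on array scaling. It was 0.12 after quantile normalization, against -0.01 for protein-coding genes, and 0.14 after cyclic loess. Of 656 autosomal long noncoding RNA genes with a probe, only the 152 reached the minimum signal. Protein-coding genes called higher on ALA and chosen after their values were seen were Leng8 (1.10), Nktr (0.85) and the splicing kinase gene Clk4 (0.77), in which both SFA arrays were below the ALA and control arrays.

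Other called genes have roles in transport, junctions and signalling. Aqp8, a water channel of bile-forming membranes, had 6.98 and 6.78 on ALA, 8.48 and 8.62 on SFA and 8.60 and 8.04 on control, so ALA was the low group (difference -1.67, SE 0.198, adjusted p = 0.0348). Cldn1, a tight junction protein gene, had 9.24 and 9.10 on ALA, 10.36 and 10.38 on SFA and 9.32 and 9.91 on control (difference -1.21, SE 0.199, adjusted p = 0.0431). Slc34a2, a phosphate transporter gene, had 5.15 and 4.62 on ALA, 6.48 and 6.24 on SFA and 5.11 and 4.85 on control (difference -1.48, SE 0.205, adjusted p = 0.0392). The last of these was near the lower end of the scale on ALA and control, where a fold change is understated.

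Nrg4, a secreted ligand of the ERBB4 receptor, had 7.11 and 7.52 on ALA, 5.62 and 5.68 on SFA and 6.45 and 6.07 on control (difference 1.67, SE 0.187, adjusted p = 0.0348). Control lay between the oils. Grik5, a glutamate receptor subunit gene, had 6.53 and 6.61 on ALA, 5.15 and 5.19 on SFA and 6.08 and 5.78 on control (difference 1.40, SE 0.142, adjusted p = 0.0348). Naaladl2 had 7.98 and 8.14 on ALA, 6.57 and 6.04 on SFA and 8.27 and 8.31 on control by its brightest probe (difference 1.75), while its 3 other probes gave 0.15, 0.53 and 1.21. Macrod2 had 5.39 and 5.13 on ALA, 6.50 and 6.32 on SFA and 5.74 and 5.54 on control (difference -1.15). Its 5 other probes gave -0.62 to 0.12 at low mean signals of 3.21 to 5.44. In both genes the size of the difference thus depended on the probe. Fkbp5 (0.88) and Zbtb16 (1.30), which respond to glucocorticoids and were chosen after their values were seen, were called higher on ALA.

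Of the 30 genes named by the largest called differences, 11 had an ALA or SFA mean at or below 5.54. That was the highest Y-linked signal on an SFA array and came from Sry. The other 3 tested Y-linked genes reached at most 4.42 on those arrays, so the count of 11 depends on the level chosen. At such low levels signal and background are hard to separate, and the differences may be understated. Among the 30, Dmbt1, Snord47 and Ermap had a mean below 5 over the SFA and control arrays. Slc34a2, Arntl and Ngp had one below 5 over the ALA and control arrays. These genes thus reached the minimum signal of 5 only through the diet in which they were highest.

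Marker lists of other cell types had 0 or 1 member called in each direction. Of 17 Kupffer cell and macrophage markers 0 were called (limma), with 2 at an unadjusted p below 0.05 and 0 under trend and robust. Their mean was 8.21 and 7.83 on ALA, 7.84 and 7.83 on SFA and 7.08 and 7.03 on control, and their median difference of 0.22 became -0.01 without ALA replicate 1. Of 24 endothelial markers 0 were called (limma), with 6 at an unadjusted p below 0.05 and 1 under trend and robust, and a mean of 8.0 and 7.92 on ALA, 7.74 and 7.70 on SFA and 7.24 and 6.68 on control. The defining markers Clec4f of Kupffer cells and Stab2 of sinusoidal endothelium differed by 0.51 and 0.52. The Kupffer cell mean was higher on ALA replicate 1, the array with the highest acute-phase mean, and not on ALA replicate 2, and the endothelial mean was higher on both ALA arrays than on both SFA arrays. The part of these cells in the acute-phase values was not tested. The 15 hepatocyte markers had a median difference of 0.08 with 0 called (limma), 0 at an unadjusted p below 0.05 and 0 under trend and robust.

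Blood cell markers gave calls in both directions. Ermap, an erythroid membrane protein gene, had 5.98 and 5.67 on ALA, 4.37 and 4.29 on SFA and 5.13 and 5.72 on control (difference 1.49, SE 0.211, adjusted p = 0.0392). It was the 1 call among 21 erythroid genes (4.76%), whose median difference was -0.15. Only these 21 of the list's 31 autosomal genes with a probe reached the minimum signal of 5. Ermap reached it only through ALA, since its mean over the SFA and control arrays was below 5. Pf4, a platelet chemokine gene, had 6.24 and 6.39 on ALA, 7.42 and 7.46 on SFA and 5.29 and 4.89 on control (difference -1.13, SE 0.161, adjusted p = 0.0393). It was the 1 call among 15 megakaryocyte and platelet genes (6.67%). Ppbp, another platelet chemokine, differed by -1.46 (adjusted p = 0.0855), while Clec1b, a platelet receptor, differed by 0.81 (adjusted p = 0.0747). Of 10 neutrophil and myeloid granule genes, Ngp was called lower (-1.27) and Cd177 higher (1.04), which is 20% against 1.51% of all autosomal genes, with a list median of -0.16. Only these 10 of the list's 26 autosomal genes with a probe reached the minimum signal of 5. Ngp reached it only through SFA, with means of 4.71 on ALA and 4.54 on control. Cd177 reached it only through ALA, with means of 4.66 on SFA and 4.91 on control. The share of 20% thus depends on that minimum. Ngp had 4.86 and 4.56 on ALA, 5.87 and 6.08 on SFA and 4.38 and 4.70 on control, and Cd177 had 5.59 and 5.80 on ALA, 4.86 and 4.46 on SFA and 5.00 and 4.82 on control.

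Of 7 exocrine pancreas and gut genes, Cela2a, a pancreatic elastase gene, was called higher on ALA at 6.16 and 6.02, against 5.00 and 5.21 on SFA and 5.38 and 5.47 on control (difference 0.99, SE 0.136, adjusted p = 0.0392). This is 14.3% against 1.51% of all autosomal genes. The list's median difference of 0.75 was the highest of all lists, though that of cholesterol synthesis (-0.91) was larger in size. The median of 0.75 became 0.36 without ALA replicate 2 and 0.46 at a minimum signal of 6. The defining elastase gene Cela1 differed by 0.08. Of 8 bile duct genes 0 were called (limma), with 4 at an unadjusted p below 0.05 and 0 under trend and robust. Among them Onecut1, a transcription factor of biliary and hepatocyte development, had 9.39 and 7.97 on ALA, 6.69 and 6.41 on SFA and 7.74 and 8.08 on control (difference 2.13, SE 0.412, adjusted p = 0.0588), and Krt19, the defining marker, differed by 0.62.

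**Figure D5:**
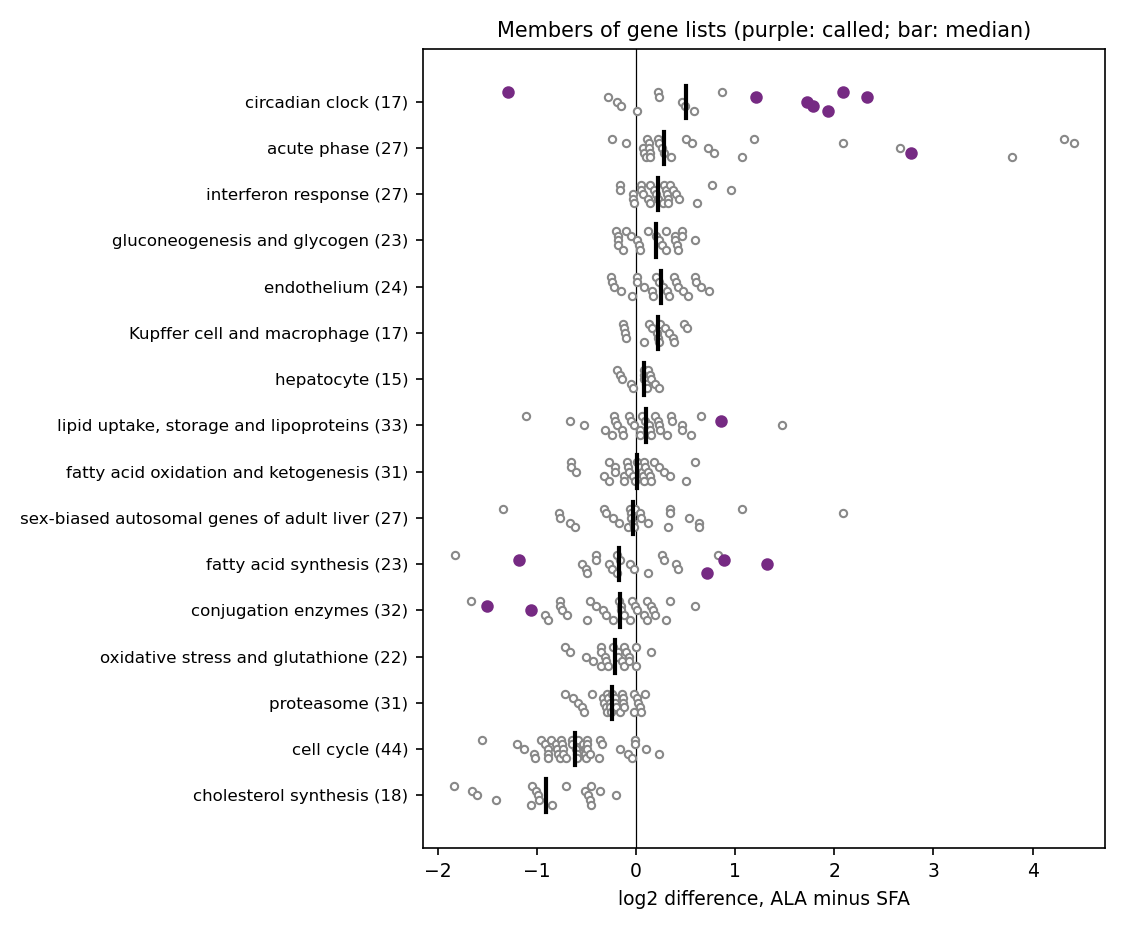
Each circle is 1 gene's log2 difference (ALA minus SFA), grouped in rows by 16 gene lists with the number of tested members in brackets, filled purple where the gene was called, with a black bar at the list's median. Clock genes hold 7 of the filled circles, the cholesterol and cell cycle rows lie left of 0 with none filled, and the hepatocyte row lies around 0.08.

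The lists of central metabolism, growth, the proteasome and interferon response gave 0 or 1 call each. Gluconeogenesis and glycogen genes had a median of 0.20 with 0 of 23 called (limma, 4 at an unadjusted p below 0.05, 2 under trend and robust). Urea cycle and amino acid genes had a median of 0.06 with 0 of 30 called (limma, 6 at an unadjusted p below 0.05, 1 under trend and robust). Insulin-like growth factor genes had a median of -0.05 with 0 of 22 called (limma, 5 at an unadjusted p below 0.05, 1 under trend and robust), and Igf1 itself, the growth factor of the liver, differed by 0.09. Of 16 glycolysis genes the 1 call was Pfkfb2, which makes the activator of phosphofructokinase, higher on ALA by 0.79 (6.25%). That list's median was -0.10, with 3 higher and 6 lower on ALA at an unadjusted p below 0.05. Under trend and robust 1 was higher and 3 were lower. Aldoc differed by -1.31 (adjusted p = 0.112) and Pfkl by -0.86 (adjusted p = 0.0816), and neither was called. Proteasome genes had a median of -0.24 with 0 of 31 called (limma, 7 at an unadjusted p below 0.05, 2 under trend and robust), and Psma1, a core subunit, differed by -0.71. Interferon response genes had a median of 0.22 with 0 of 27 called (limma, 4 at an unadjusted p below 0.05, 0 under trend and robust), and Oas2, an antiviral enzyme, differed by 0.95 (adjusted p = 0.0874). Afp had 4.94 and 5.60 on ALA, 6.26 and 6.44 on SFA and 4.52 and 4.81 on control, a difference of -1.08 that was not called (adjusted p = 0.0662). Igf2, the fetal growth factor, differed by -0.82 (adjusted p = 0.104).

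Slc1a2, a glutamate transporter of hepatocytes around the central vein, was the 1 call among 20 zonation genes (5.00%). It had 8.90 and 8.51 on ALA, 7.78 and 7.74 on SFA and 9.12 and 9.18 on control, so SFA was the low group (difference 0.94, SE 0.155, adjusted p = 0.0431). The lists that follow gave 0 calls (limma). Fetal liver and imprinted growth genes had a median of 0.04 over 14 tested members, with 5 at an unadjusted p below 0.05 and 1 under trend and robust. Complement and coagulation genes had a median of 0.14 over 32 tested members, with 2 at an unadjusted p below 0.05 and 1 under trend and robust, and the complement genes C2 and C4b differed by 0.50 and 0.48. Iron handling genes had a median of 0.02 over 20, with 3 at an unadjusted p below 0.05 and 2 under trend and robust, and Hamp2, the second hepcidin gene, differed by 1.07 (adjusted p = 0.0782). Metallothionein and zinc transport genes had a median of -0.10 over 11, with 5 at an unadjusted p below 0.05 and 2 under trend and robust. Among them Slc30a10, a manganese exporter gene, had 6.13 and 5.40 on ALA, 7.10 and 6.88 on SFA and 7.06 and 6.80 on control (difference -1.23, adjusted p = 0.0596). Slc39a14, an importer of zinc, iron and manganese, differed by 0.73 (adjusted p = 0.0616). ALA was the low group in Slc30a10 and the high group in Slc39a14.

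Heat shock and endoplasmic reticulum stress genes had a median near 0 over 32 tested members, with 6 at an unadjusted p below 0.05 and 0 under trend and robust, and Chac1, which breaks down glutathione under such stress, differed by 1.16 (adjusted p = 0.125). Respiratory chain and ATP synthase genes had a median of -0.13 over 46, with 7 at an unadjusted p below 0.05 and 0 under trend and robust. Carboxylesterase genes had a median of -0.16 over 13, with 2 at an unadjusted p below 0.05 and 0 under trend and robust. Among cell types, 27 stellate cell and fibroblast markers had a median of 0.01, with 2 at an unadjusted p below 0.05 and 0 under trend and robust. Markers of blood-forming progenitors and mast cells had a median of 0.50 over 7, with 4 at an unadjusted p below 0.05 and 0 under trend and robust, led by Hdc (0.62), which makes histamine, and the stem cell factor receptor gene Kit (0.60). Lymphoid markers had a median of 0.28 over 8, and muscle and adipose markers -0.05 over 5, with 1 at an unadjusted p below 0.05 and 0 under trend and robust in each. A list of 27 autosomal genes with sex bias in adult liver, which mixes genes biased either way, had 11 differences above and 16 below 0, with 3 at an unadjusted p below 0.05 and 1 under trend and robust. Since it mixes directions and stems from adults, it gives no measure of the sex difference between these pools.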

How the data were processed

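Per the labels' protocols, biotin-labelled total RNA from pools of 3 livers was measured on 6 Affymetrix arrays. The authors deposited log2 values made with RMA and Partek 6.6, per the submitters' processing notes. Of 35556 probes, 21789 were annotated to 1 gene symbol, and 21698 of these were found in RefSeq (GRCm38.p6) by Entrez identifier, which also gave the chromosome. Probes of several genes (1621) or of no listed gene (12146) were not used. RMA carries no detection call, so the values do not tell whether a low signal is expression or background. The precision is limited by the number of arrays.

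In R 4.3.3 with limma 3.58.1, a mean per diet was fitted to all 6 arrays (lmFit, eBayes, 3 residual degrees of freedom), with Benjamini-Hochberg adjustment across the 10977 genes tested. Tests are two-sided. Genes are named if they were among the 15 autosomal calls per direction with the largest difference and no overlap between arrays, leaving out clone names and pseudogenes, or if they were called in, or led, a list. The 42 lists of processes and cell types, and the 44 genes fixed for reporting, of which 37 were tested, were chosen with earlier results of these data known. Lists are described by counts and medians without a test.

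On simulated data with the fitted spread and 10977 genes, the comparison of ALA with SFA found 24.5% of simulated log2 changes of 0.58, 93.4% of changes of 1 and 100% of changes of 2, with 13.8 false calls on average. The simulated noise was normal and independent between genes, so it lacked differences that many genes share in a pool. Each gene's simulated spread was limma's moderated variance, which is already drawn toward a common value. In the data, 84 autosomal genes were at least 1 higher on ALA and 63 at least 1 lower, and 69 of these were called. The simulated shares therefore do not give the share of changes found here. Alternatives were other signal minima, scalings, probe rules, variance settings and sets of arrays. Replicate numbers did not pair the arrays, and a fit with them as a block was run as an alternative.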

Additional observations from a re-analysis of the deposited data

How the results depend on the processing

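With no minimum signal 32 genes were called in all (28 autosomal, 21 higher on ALA and 7 lower), and with a minimum of 6 it was 293 (279, 183 and 96). With arrays centred on the median it was 82 (75, of which 44 higher), and after quantile normalization 90 (83, of which 51 higher). After cyclic loess 74 autosomal genes were higher on ALA. With only the 4 ALA and SFA arrays it was 11 (7, with 6 higher and 1 lower), and with trend and robust 421 (406, 255 and 151). The replicate block gave 0 calls in all, and 0 autosomal, higher or lower, with 2300 autosomal genes at an unadjusted p below 0.05. The correlation of deviations between arrays with the same number was -0.03 to 0.02, so the numbers do not pair the pools. Leaving out 1 array at a time gave 0 to 36 calls in all, 0 to 35 autosomal, 0 to 9 higher on ALA and 0 to 26 lower. Leaving out a control array gives the same test as the 4 arrays, since a lone control adds nothing to the spread. With 1 array left in a diet, it is assumed to vary like the others. The other alternatives kept these counts within 1.5 times.

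Among the autosomal calls, 122 of the 122 that were fitted were called again at a minimum of 6, 159 of 161 with trend and robust, 153 with the 75th percentile, 108 after cyclic loess, 83 after quantile normalization, 75 on the median and 27 with no minimum. Without ALA replicate 1 the difference of Cyp2c38 was -0.46 and that of Fasn 0.08, both turned in sign and neither called; without ALA replicate 2 they were 1.92 and -0.90. Of the other values of named genes, 2315 stayed on their side of the threshold, 613 lost and 49 gained a call. List medians moved beyond the spread in 43 of 797 values.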

Other observations

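MicroRNA genes were read on the same arrays through their longer transcripts. Of 55 tested autosomal microRNA genes 2 were called, both higher on ALA (3.64%, against 1.51% of all autosomal genes). Only these 55 of 258 with a probe reached the minimum signal. The median difference was 0.20, but 0.10 after quantile normalization and 0.13 after cyclic loess. Mir7-1 had 6.16 and 6.21 on ALA, 5.40 and 5.28 on SFA and 6.12 and 5.96 on control (difference 0.84, SE 0.128, adjusted p = 0.0393). Mir680-3 had 6.30 and 6.52 on ALA, 5.17 and 5.51 on SFA and 6.65 and 6.56 on control (difference 1.07, SE 0.158, adjusted p = 0.0393). In both the SFA arrays were the low ones. Of 45 transcribed pseudogenes 5 were called higher and 0 lower (11.1%, against 1.51%). Only these 45 of 156 autosomal ones with a probe reached the minimum signal.

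Promoter motifs were also counted for lists without a called member. CCAAT was in 24 of 34 cell cycle promoters (70.6%) and 41.1% of all genes, TTTGAA or TTCGAA in 19 (55.9%) and 21.7%, and TTTGGCGC, TTTCCCGC or TTTGGCGG in 6 (17.6%) and 2.39%. TCACNCCAC, a sterol element, was in 1 of 14 cholesterol synthesis promoters (7.14%, Hmgcs1) and 1.44% of all genes. TGCGCNC or TGCACNC, a metal element, was in 7 of 9 promoters of metallothionein and zinc transport genes (77.8%) and 28.2%. Both strands were searched, and a match is no sign of use.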
